A study of Mus musculus with 4 samples.

Results

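The amino acid transporters examined here are 60 genes, of 47729 in the deposited table, from the solute carrier families Slc1, Slc3, Slc6, Slc7, Slc36, Slc38 and Slc43. The rule took symbols that end in the member number, so symbols with a letter after it were left out. Every gene whose symbol fitted was taken, whatever its level or difference. The rule takes in a few carriers of other solutes, such as the creatine transporter Slc6a8 and the purine base carrier Slc43a3. RNA came from Lewis lung carcinoma (LLC) cells, a mouse tumor line, grown under the skin of the back of C57BL/6 mice and taken after 5 days. One group was labelled wild type (LLC), although the study also made control cells that carry a vector without insert. In the other the cells carried a pEFIN plasmid coding for bioactive murine chemerin (LLC-Chem), a secreted protein that acts through the receptor CMKLR1. Each group had 2 libraries, each a pool of 3 tumors, so that 6 tumors stood behind each group mean. The study collected individual clones after selecting transfected cells, so differences between clones and those due to chemerin cannot be told apart in these 4 pools. Values are RPM, reads per 1000000 reads counted on genes. The libraries held between 28470000 and 33990000 reads, as fitted from the spacing of the values, and 3 reads correspond to at most 0.105 RPM. Rarres2, the gene for chemerin, measured 102 and 98.2 RPM in LLC against 105.9 and 105.8 RPM in libraries labelled LLC-Chem (limma, adjusted p = 0.541), so it does not settle the labels.

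Cells take up amino acids through carriers with overlapping substrates. Some are driven by sodium and load the cell, such as the Slc38 carriers, while others exchange one amino acid for another, such as Slc1a5 and the heterodimers in which a light chain of the Slc7 family is held at the membrane by the heavy chain Slc3a2. In tumors these carriers supply glutamine, leucine, serine and cystine, and several sit on lysosomes, where amino acids are reported to the growth regulator mTORC1.

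Many of the 60 genes were silent or nearly so in these tumors. A mean of at least 1 RPM over the 4 pools, the limit for testing, was reached by 29 members (48.3%), compared with 28.7% of all genes. The differences were tested with limma on log2(RPM + 0.5), with p-values adjusted by the Benjamini-Hochberg method over the 13694 genes that reached this limit, and a gene was called at an adjusted p under 0.05. By this test 5 members were higher in LLC-Chem tumors (17.2% of the 29, against 9.54% of all genes tested) and 7 were lower (24.1%, against 13.5%). In either direction 12 of 29 were called (41.4%, against 23.0%). The median log2 fold change was -0.03 over the 29 members and -0.04 over all genes tested. Both LLC-Chem pools lay above both LLC pools for 8 members (27.6%, against 33.1% of genes tested) and below them for 14 (48.3%, against 39.3%). In bulk tumors, a loss of cells that express a gene and a lower level in each cell cannot be told apart. With edgeR 5 members were called higher (17.2%, against 11.3% of all genes tested) and 4 lower (13.8%, against 11.7%). The limma calls rest on all 4 pools. With any 1 of them left out limma called 0 of the 13694 genes, against 998 to 2359 higher and 1580 to 2823 lower at an unadjusted p under 0.05, while all 12 members called kept their direction. Without the limit on low values limma called 0 members, against 6 higher and 13 lower of 55 at an unadjusted p under 0.05 (10.9% and 23.6%, where all 26260 genes gave 12.9% and 15.2%).

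**Figure D1:**
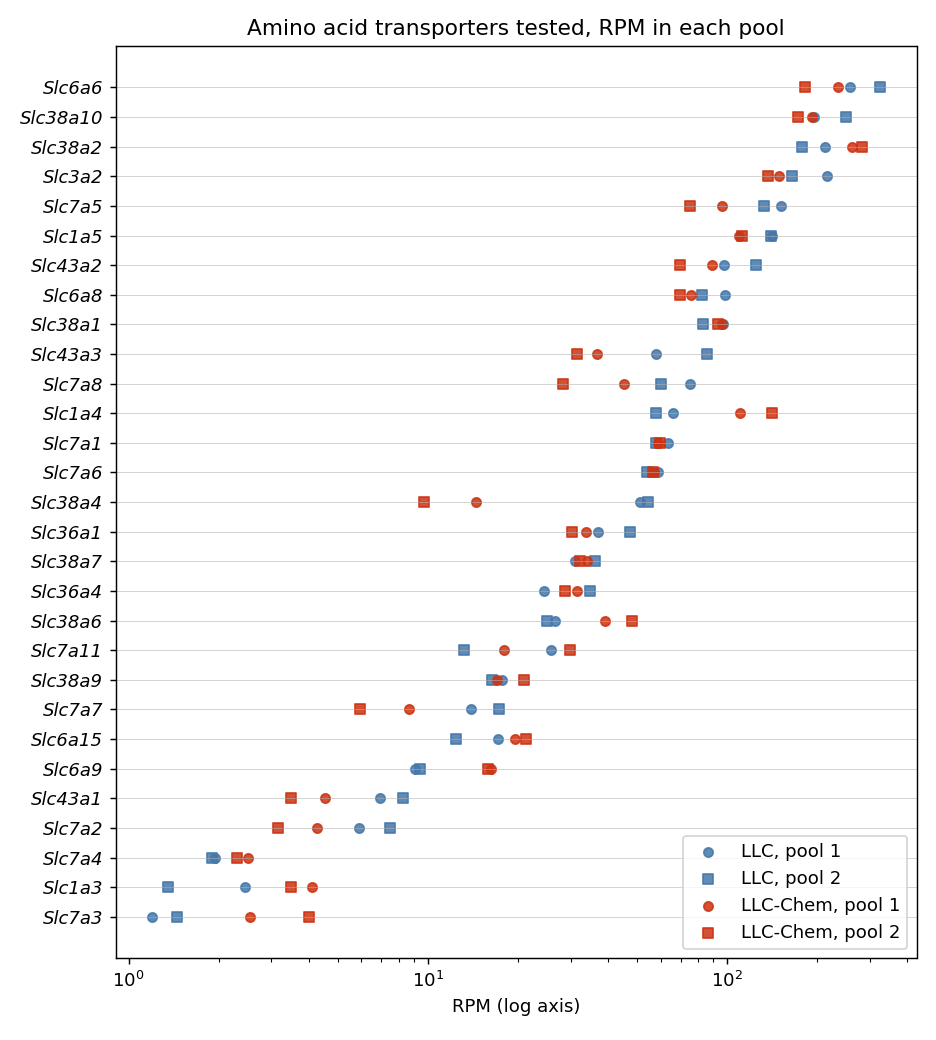
RPM on a log axis of the 29 transporters tested, 1 row per gene in the order of their mean in LLC tumors, with LLC pools in blue and LLC-Chem pools in red. The levels run from 1.2 RPM (Slc7a3, first LLC pool) to 325 RPM (Slc6a6, second LLC pool), and Slc38a4 has the widest gap between the groups.

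To compare levels between genes, RPM were divided by the length of all annotated exons of a gene in kilobases. On this scale the heavy chain Slc3a2 was the most abundant member in both groups, with means of 54.0 RPM per kb in LLC and 40.5 RPM per kb in LLC-Chem tumors. In LLC tumors it was followed by Slc7a5 (38.4), Slc38a10 (34.6), Slc6a6 (34.4) and Slc1a5 (33.7), of which each overlapped in its pools with the one named after it. In LLC-Chem tumors the order after Slc3a2 was Slc1a4 (32.1), Slc38a2 (30.8), Slc38a10 (28.4) and Slc1a5 (26.5), again in RPM per kb. Of these, Slc1a4 overlapped with Slc38a2 and Slc38a2 with Slc38a10. Slc1a4 thus stood at rank 9 in LLC and at rank 2 in LLC-Chem tumors, while Slc7a5 went from rank 2 to rank 7 and Slc38a4 from rank 11 to rank 20. The summed level of all 60 members was 367 and 363 RPM per kb in LLC and 316 and 299 RPM per kb in LLC-Chem tumors.

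The sodium-coupled neutral transporters of the Slc38 family showed the largest change among the members tested. Slc38a4 (ENSMUSG00000022464), a carrier for small neutral amino acids that is known as an imprinted gene expressed in placenta and liver, measured 51.2 and 54.4 RPM in LLC and 14.4 and 9.69 RPM in LLC-Chem tumors. The groups were far apart, with LLC-Chem tumors at 22.9% of the LLC mean (limma, log2 fold change -2.11 ± 0.20 SE, adjusted p = 0.010). Slc38a2 (ENSMUSG00000022462), the carrier of the same type that cells commonly raise when amino acids run short, measured 213 and 179 RPM in LLC and 261 and 283 RPM in LLC-Chem tumors. It rose by 0.48 on the log2 scale (limma, SE 0.13, adjusted p = 0.0471), with both LLC-Chem pools above both LLC pools. The call was lost in 3 of the 11 alternatives with all pools (adjusted p from 0.0040 to 0.139). These 11 include a pairing of pools across replicate numbers (crossed replicate block) that was chosen after seeing the data. Slc38a6 also rose, from 26.6 and 24.9 to 39.0 and 48.2 RPM (limma, log2 fold change 0.74 ± 0.14 SE, adjusted p = 0.0258).

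Slc38a1, which like Slc38a2 brings glutamine and alanine into cells, measured 96.6 and 83.0 RPM in LLC and 96.5 and 93.6 RPM in LLC-Chem pools. Its log2 fold change was 0.09 with a 95% interval of -0.20 to 0.37, and its pools overlapped between the groups. The lysosomal members were not called either. Slc38a7, which exports glutamine from lysosomes, measured 31.0 and 36.1 RPM in LLC and 34.2 and 32.4 RPM in LLC-Chem pools (log2 fold change -0.01, 95% interval -0.33 to 0.31). Slc38a9, a lysosomal arginine sensor for mTORC1, measured 17.7 and 16.4 RPM in LLC and 17.0 and 21.0 RPM in LLC-Chem pools (log2 fold change 0.15, 95% interval -0.25 to 0.54). Both overlapped between the groups. Slc38a10 measured 195 and 249 RPM in LLC and 192 and 173 RPM in LLC-Chem pools (limma, adjusted p = 0.211). Slc38a3, Slc38a5, Slc38a8 and Slc38a11 did not exceed 0.10 RPM in any pool.

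Slc38a1, Slc38a2 and Slc38a4 lie near each other on chromosome 15 of GRCm38, all on the minus strand. Slc38a1 spans 96571418 to 96642913, Slc38a2 spans 96687392 to 96699730 and Slc38a4 spans 96994820 to 97055956, with gaps of 44.5 and 295 kb between them. The 3 genes had different fold changes. Relative to Slc38a2, the level of Slc38a4 per kb of exon was 0.498 and 0.632 in LLC and 0.115 and 0.0711 in LLC-Chem pools. Relative to Slc38a1 it was 2.14 and 2.65 in LLC and 0.605 and 0.419 in LLC-Chem pools. Of the summed Slc38 level, Slc38a4 made up 14.3% in both LLC pools and 4.10% and 2.78% in the LLC-Chem pools.

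The exchangers for neutral amino acids of the Slc1 family changed in opposite directions. Slc1a4 (ENSMUSG00000020142; chromosome 11, 20302180 to 20332713, minus strand), which exchanges alanine, serine and cysteine, measured 65.9 and 57.8 RPM in LLC and 110.3 and 141 RPM in LLC-Chem tumors. It rose 2.03-fold in the mean (limma, log2 fold change 1.01 ± 0.15 SE, adjusted p = 0.0159). Slc1a5 (ENSMUSG00000001918; chromosome 7, 16781340 to 16798274, plus strand), an exchanger best known for glutamine, measured 141 and 140.1 RPM in LLC and 109.7 and 112 RPM in LLC-Chem tumors. It fell by 0.34 on the log2 scale (limma, SE 0.09, adjusted p = 0.0475). This was the smallest change among the calls. The call was lost in 7 of the 11 alternatives with all pools, with TMM and edgeR among them (limma with TMM, adjusted p = 0.0607, edgeR 0.0699, range 0.0456 to 0.118). The lowest of these came from the crossed replicate block. Per kb of exon, Slc1a4 was at 0.496 and 0.438 of the level of Slc1a5 in LLC and at 1.07 and 1.34 in LLC-Chem pools, so the order of the pair was turned.

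**Figure D2:**
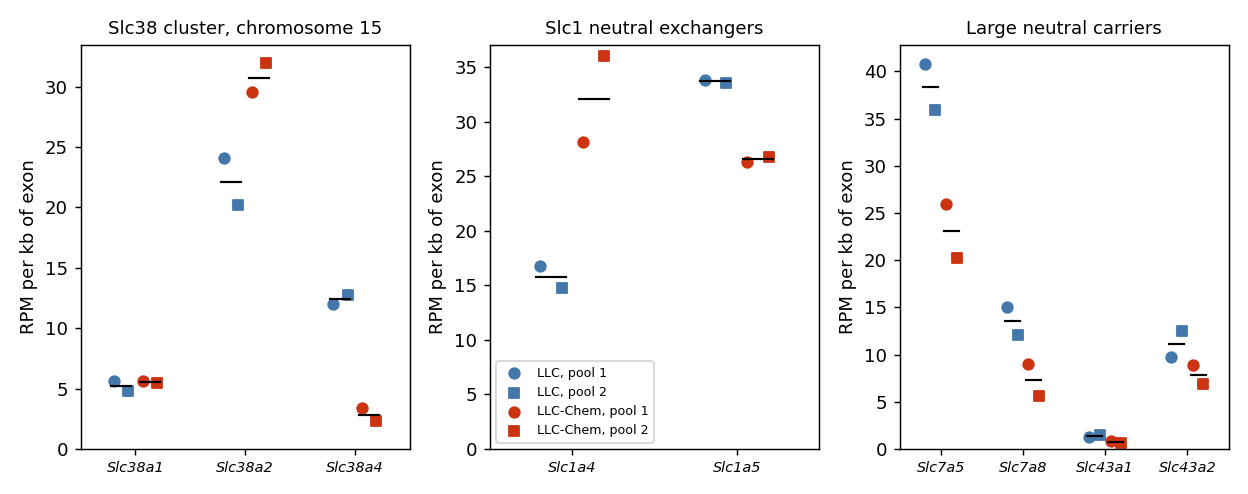
RPM per kb of exon of related transporters in each of the 4 pools, on axes that start at 0, with black bars for group means. Slc38a4 lies below its LLC level beside a Slc38a1 that overlaps between groups, Slc1a4 crosses Slc1a5, and Slc7a5, Slc7a8, Slc43a1 and Slc43a2, grouped by hand, each have both LLC-Chem pools below both LLC pools, as do 39.3% of all genes tested.

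The glutamate transporters of Slc1 were weakly expressed. Slc1a3, the carrier of glia and several stromal cells, was the member that reached the limit for testing, at 2.45 and 1.35 RPM in LLC and 4.10 and 3.50 RPM in LLC-Chem tumors. It was not called (limma, log2 fold change 0.88, adjusted p = 0.0791). Slc1a1, Slc1a2, Slc1a6 and Slc1a7 reached at most 0.35 RPM.

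Heterodimers of Slc3a2 with light chains of Slc7 exchange large neutral, cationic or acidic amino acids. The light chain Slc7a5 (ENSMUSG00000040010), the main carrier of leucine in many tumors, measured 151 and 133 RPM in LLC and 96.2 and 75.1 RPM in LLC-Chem tumors. Both LLC-Chem pools lay below both LLC pools, at 60.2% of the LLC mean (limma, log2 fold change -0.74 ± 0.15 SE, adjusted p = 0.0281). The call was lost in 2 of the 11 alternatives with all pools, with limma without a trend among them (adjusted p = 0.0539, range 0.0010 to 0.122). Slc7a8, which carries a similar range of substrates, fell from 75.0 and 60.2 to 45.1 and 28.3 RPM (limma, log2 fold change -0.90 ± 0.24 SE, adjusted p = 0.0488). The call was lost in 5 of these alternatives, with TMM among them (limma, adjusted p = 0.0516, range 0.0071 to 0.163), and without the second LLC-Chem pool the log2 fold change was -0.57. Slc7a7, which is prominent in macrophages and releases cationic amino acids in exchange for neutral ones, fell from 13.9 and 17.2 to 8.65 and 5.95 RPM (limma, log2 fold change -1.06 ± 0.23 SE, adjusted p = 0.0322), with 7.0% of its exon bases shared with Oxa1l on the other strand.

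The related light chain Slc7a6 did not follow. Its pools measured 58.9 and 53.9 RPM in LLC and 57.2 and 56.6 RPM in LLC-Chem tumors, with a log2 fold change of 0.02 and a 95% interval of -0.24 to 0.27. Slc7a11, which takes up cystine in exchange for glutamate and so feeds glutathione synthesis, varied within both groups. It measured 25.8 and 13.2 RPM in LLC and 18 and 29.8 RPM in LLC-Chem tumors, and its 95% interval of -0.61 to 1.25 on the log2 scale leaves its direction undetermined. The heavy chain Slc3a2 measured 216 and 165 RPM in LLC and 149 and 137 RPM in LLC-Chem pools, with the LLC-Chem pools lower but no call (limma, log2 fold change -0.40 ± 0.15 SE, adjusted p = 0.106, and a log2 fold change of -0.21 without the first LLC pool). Summed per kb of exon, the light chains stood at 1.22 and 1.41 times the level of Slc3a2 in LLC and at 1.22 and 1.09 times in LLC-Chem pools. Within that sum the share of Slc7a5 was 54.6% and 54.4% in LLC and 50.3% and 47.8% in LLC-Chem pools, and that of Slc7a6 17.2% and 17.8% in LLC and 24.3% and 29.3% in LLC-Chem pools. Slc7a9, Slc7a10, Slc7a12, Slc7a13, Slc7a15 and the other heavy chain, Slc3a1, which serves kidney and intestine, reached at most 0.20 RPM.

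In the Slc43 family, Slc43a1 and Slc43a2 let large neutral amino acids pass without an exchange partner. Of its 3 members 2 were called lower (66.7%, against 13.5% of all genes tested). Slc43a1 fell from 6.95 and 8.30 to 4.55 and 3.50 RPM (limma, log2 fold change -0.85 ± 0.21 SE, adjusted p = 0.0436). The call was lost in 4 of the 11 alternatives with all pools, with edgeR among them (adjusted p = 0.0550, range 0.0238 to 0.130). Slc43a3 fell from 58.1 and 85.8 to 36.8 and 31.4 RPM (limma, log2 fold change -1.04 ± 0.20 SE, adjusted p = 0.0265). The pair lies on chromosome 2, with 73.0 kb between Slc43a1 (84838850 to 84863594) and Slc43a3 (84936579 to 84958509). Slc43a2 measured 97.4 and 125 RPM in LLC and 88.9 and 69.4 RPM in LLC-Chem pools and was not called (limma, adjusted p = 0.0958). Slc7a5, Slc7a8, Slc43a1 and Slc43a2, a grouping made by hand that leaves out the branched-chain carrier Slc6a15, summed to 66.7 and 61.9 RPM per kb in LLC and to 44.6 and 33.4 RPM per kb in LLC-Chem pools.

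Among the cationic amino acid transporters, which bring in arginine and lysine, Slc7a3 was called higher, from 1.2 and 1.45 to 2.55 and 4.0 RPM (limma, log2 fold change 1.02 ± 0.27 SE, adjusted p = 0.0490). This call was lost in 3 of the 10 alternatives with all pools that tested it (adjusted p from 0.0273 to 0.145). At these levels the offset of 0.5 RPM understates the difference, which was 2.47-fold in the means. Slc7a1, the general arginine carrier of dividing cells, was far more abundant and measured 63.7 and 58.0 RPM in LLC and 59.0 and 59.8 RPM in LLC-Chem tumors (log2 fold change -0.03, 95% interval -0.29 to 0.22). Slc7a2, a carrier of the same type that macrophages express, measured 5.90 and 7.50 RPM in LLC and 4.25 and 3.15 RPM in LLC-Chem tumors. Its LLC-Chem pools were the lower ones, without a call (limma, adjusted p = 0.0619). Slc7a4 was not called (limma, adjusted p = 0.39). Slc7a14 reached at most 0.15 RPM.

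The sodium- and chloride-driven Slc6 family was represented by 4 genes above the limit for testing. Slc6a9, a glycine transporter, rose from 9.05 and 9.44 to 16.3 and 15.8 RPM (limma, log2 fold change 0.77 ± 0.14 SE, adjusted p = 0.0248), with pools of each group close together. Exons of other genes on the opposite strand cover 30.2% of its exon bases, and reads of overlapping genes cannot be separated if strand was not used in counting. Slc6a6, the taurine transporter, measured 257 and 325 RPM in LLC and 235 and 183 RPM in LLC-Chem pools and was not called (limma, adjusted p = 0.0995). Slc6a15, a carrier of branched-chain amino acids and proline, measured 17.1 and 12.4 RPM in LLC and 19.5 and 21.3 RPM in LLC-Chem pools (limma, adjusted p = 0.123). The creatine transporter Slc6a8 measured 98.8 and 82.4 RPM in LLC and 75.6 and 69.5 RPM in LLC-Chem pools (limma, adjusted p = 0.12).

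Of the 31 members under the limit for testing, 5 were at 0 in all 4 pools and none exceeded 1.55 RPM in any. Slc6a12, a carrier of betaine and GABA that cells use for osmotic balance, and which was picked out after its values were seen, measured 0.85 and 1.55 RPM in LLC and 0.10 and 0.15 RPM in LLC-Chem pools. The other transporters for GABA and those for dopamine, noradrenaline and serotonin were at 0.60 RPM or below. Among the proton-coupled Slc36 carriers, Slc36a1 measured 37.1 and 47.3 RPM in LLC and 33.7 and 30.3 RPM in LLC-Chem pools (limma, adjusted p = 0.12). Slc36a4 overlapped between the groups, at 24.5 and 34.7 RPM in LLC and 31.6 and 28.8 RPM in LLC-Chem pools (log2 fold change 0.05, 95% interval -0.42 to 0.52).

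**Figure D3:**
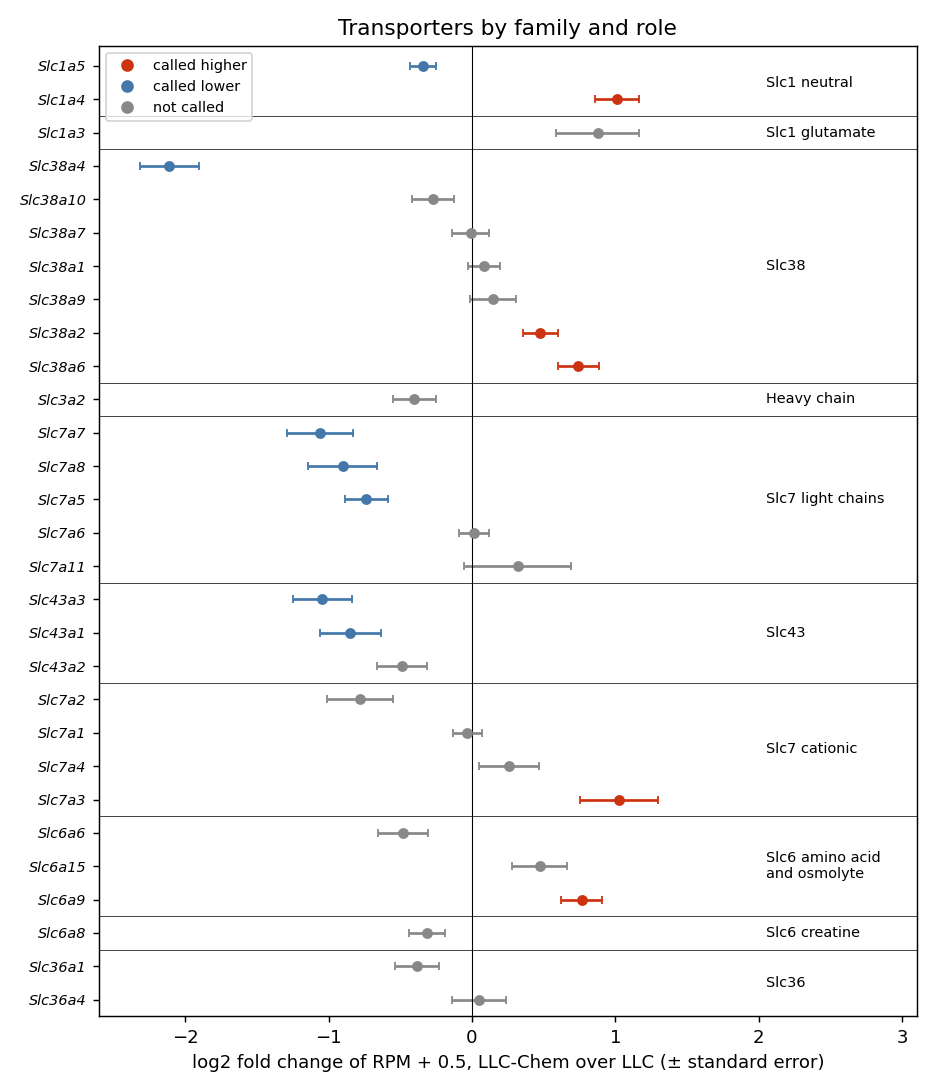
Log2 fold change of RPM + 0.5 between LLC-Chem and LLC tumors for the 29 transporters tested, grouped by family and role, with limma's standard error as bars and colours for the call. The 5 members called higher reach 1.02 (Slc7a3), the 7 called lower reach -2.11 (Slc38a4), and the remaining 17 were not called.

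Starved cells raise many of these genes through the transcription factor ATF4, which binds C/EBP-ATF elements. Promoter windows of RefSeq genes (GRCm38.p6, 250 bases before to 50 after the start site) were found for 42 of the 60 members and searched on both strands. The called members Slc1a5, Slc7a3, Slc7a5 and Slc43a3 had no window, and sites outside the windows were not searched. The letters TGATGNAA, a core of that element, occurred in 3 of the 42 (7.14%) and in 4.51% of the 27025 genes with such a window. They are shown because the genes that carry them differed: Slc1a4 was called higher, Slc7a7 lower and Slc7a11 was not called. In each line the capitals mark the element, on either strand, and all 3 genes lie on the minus strand. The Slc1a4 line covers chr11:20332700-20332747, with the element from -4 to 3 bases relative to the start site, the Slc7a11 line covers chr3:50443643-50443709 with 2 elements and the Slc7a7 line covers chr14:54417928-54418115 with 2 elements.
Slc1a4: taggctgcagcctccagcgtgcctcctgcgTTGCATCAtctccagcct
Slc7a11: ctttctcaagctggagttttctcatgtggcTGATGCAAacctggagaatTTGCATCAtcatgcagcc
Slc7a7: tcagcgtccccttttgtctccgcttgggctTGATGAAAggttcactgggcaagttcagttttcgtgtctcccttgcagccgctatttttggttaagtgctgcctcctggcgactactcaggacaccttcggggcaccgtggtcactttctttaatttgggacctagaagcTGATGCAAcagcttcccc

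The windows were also searched for the E-box CACGTG, which 9 members held (21.4%, against 8.09% of all genes with a window). The antioxidant element TGACNNNGC was held by 9 (21.4%, against 14.0%). The hypoxia element core ACGTG, whose letters lie inside that E-box, was held by 17 members (40.5%, against 21.8%). Its holders included members under the limit for testing, such as Slc1a6, Slc6a3 and Slc7a14. The holders that were called, Slc43a1 and Slc7a7, were both lower. A match of letters is a description of these windows and not evidence of binding.

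Enzymes and regulators of amino acid use were examined beside the carriers. Of 21 tested genes for amino acid synthesis and breakdown, limma called 0 higher and 9 lower (42.9%, against 13.5% of all genes tested), with a median log2 fold change of -0.59. At an unadjusted p under 0.05 limma gave 0 higher and 14 lower, where the shares of all genes tested were 17.96% and 23.4%. edgeR and DESeq2 also called 0 of them higher (11.3% and 13.7% of all genes) and called 9 and 11 lower (11.7% and 16.6%). At an unadjusted p under 0.05 each gave 1 higher (21.2% and 18.7% of all genes). Those called lower by limma included the serine synthesis enzymes Phgdh (154 and 126 RPM in LLC against 89.6 and 69.4 RPM in LLC-Chem pools, limma, adjusted p = 0.0280) and Psat1 (adjusted p = 0.0258). Asns, which makes asparagine, fell by 0.69 on the log2 scale (limma, adjusted p = 0.0270). Glul, which makes glutamine, fell by 0.81 (limma, adjusted p = 0.0275). Bcat1, which starts the breakdown of leucine after its uptake, fell by 0.59 (limma, adjusted p = 0.0265). Odc1 and Shmt2 were also called lower.

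Of 10 genes of the response to amino acid shortage, 1 was called higher and 1 lower, each 10% of the list against 9.54% and 13.5% of all genes tested. Ddit4, an inhibitor of mTORC1, rose by 0.45 on the log2 scale (limma, adjusted p = 0.0355) and Atf3 fell by 0.80 (limma, adjusted p = 0.0158). Atf4 itself measured 423 and 299 RPM in LLC and 316 and 308 RPM in LLC-Chem pools (limma, adjusted p = 0.455). Of 19 tested genes of amino acid sensing upstream of mTORC1, the leucine sensor Sesn2 was called (5.26% of the list), lower by 0.57 on the log2 scale (limma, adjusted p = 0.0359), and the median was -0.06. Of 7 tested genes for cystine use and glutathione, 0 were called by limma, edgeR or DESeq2, against 0 higher and 4 lower at an unadjusted p under 0.05 in limma (17.96% and 23.4% of all genes tested), and the median log2 fold change was -0.37.

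Markers of several host cell types were lower in LLC-Chem tumors, while those of others were mixed or not called. Against 13.5% of all genes tested called lower and 39.3% with both LLC-Chem pools below both LLC pools, the endothelial list had 7 of 8 called lower (87.5%) and all 8 below, and their summed level was 257 and 211 RPM in LLC and 71.1 and 40.3 RPM in LLC-Chem pools. Of 9 macrophage markers 3 were called lower (33.3%), 6 were not called and 8 lay below in both LLC-Chem pools (88.9%), with sums of 2799 and 3517 RPM in LLC and 2382 and 1501 RPM in LLC-Chem pools. Of 5 tested neutrophil markers 4 were called lower (80.0%), and all 6 listed had sums of 272 and 223 RPM in LLC and 62.9 and 32.6 RPM in LLC-Chem pools. Of 3 tested lymphocyte markers 2 were called lower (66.7%), and all 8 listed had sums of 11.4 and 9.64 RPM against 2.85 and 0.850 RPM. Of 6 mural cell markers 5 were called lower (83.3%), with sums of 240.0 and 198 RPM against 69.9 and 49.1 RPM. The 6 fibroblast markers were mixed, with Col1a1 and Col1a2 called lower, Pdgfra higher and 3 not called. By edgeR and DESeq2 the macrophage markers called lower were 2 and 6, where these tests called 11.7% and 16.6% of all genes lower. The fibroblast markers called higher were 0 and 3, where they called 11.3% and 13.7% of all genes higher. Nerve, adipocyte, skeletal muscle, erythroid and keratinocyte lists held 11 tested genes, of which 2 were called, both higher (the adipocyte marker Cfd and the muscle marker Tnnt3). Of all genes tested limma called 9.54% higher. All 4 erythroid and both tested nerve markers overlapped between the groups. Ckm and Myh4 of muscle were at 0 in all pools, and Krt5 and Krt14 of keratinocytes at no more than 0.05 RPM. The second LLC-Chem pool had the lower sum for endothelial, macrophage, neutrophil, lymphocyte and mural markers, and its erythroid sum was 4.0 RPM, against 135 RPM in the first LLC-Chem pool and 108 and 43.1 RPM in the LLC pools. It also had the lower value of the 2 LLC-Chem pools for 6 of the 7 transporters called lower, Slc1a5 being the exception. The share of all genes that were lower in that pool was not counted. In the LLC pools Slc38a4, Slc43a1, Slc43a3 and Slc7a7 were higher in the second pool, while Slc7a5 and Slc7a8 were lower there and Slc1a5 nearly equal. The macrophage sum was higher in that pool, as was the fibroblast sum (23381 RPM in the first and 44289 RPM in the second). The endothelial, neutrophil, lymphocyte and mural sums were lower in it. The part of these cells in the differences of Slc7a7, Slc7a8, Slc43a1, Slc43a3, Slc38a4 and the other transporters was not tested.

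**Figure D4:**
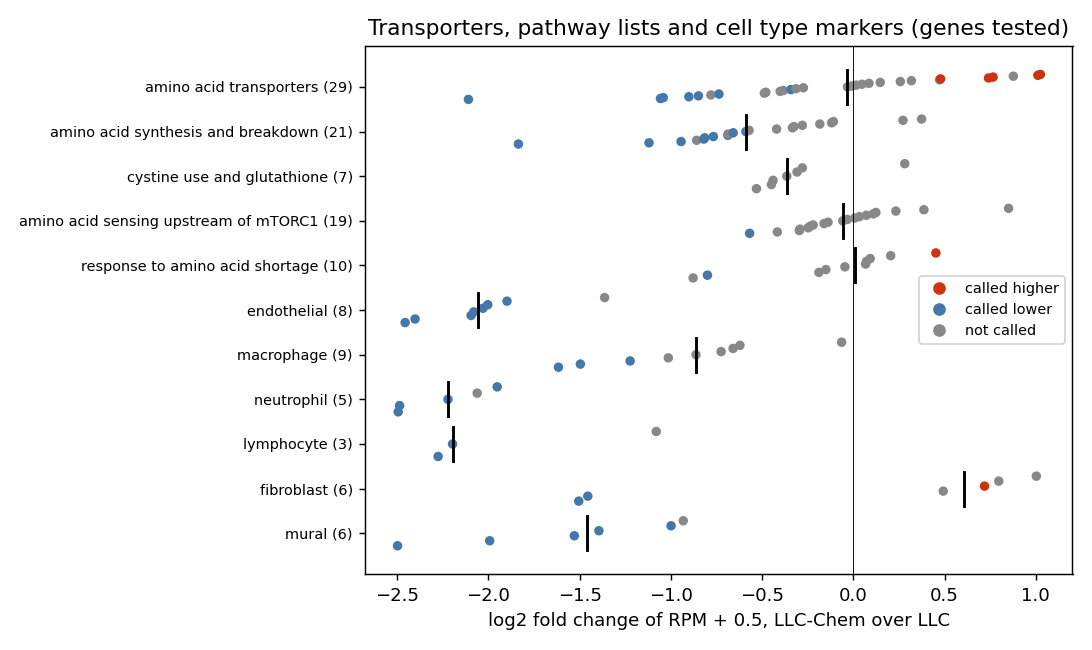
Log2 fold change between LLC-Chem and LLC tumors of each tested gene for the transporters, the 4 pathway lists and 6 lists of cell type markers, with black bars at the medians, colours for the call and the number of genes tested in brackets. The transporters spread to both sides of 0, while the synthesis and breakdown, cystine and glutathione, endothelial, macrophage, neutrophil, lymphocyte and mural lists lie mostly below it.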

How the data were processed

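RNA-seq was analysed for 4 libraries, with groups and replicate numbers taken from the sample titles. Paired-end reads had been aligned by the authors to GRCm38.p4 using STAR, gene counts taken with HTSeq on the Ensembl 84 annotation, and the result deposited as RPM. Versions and strand setting are not given in the sources used here. RPM were compared with limma 3.58.1 in R 4.3.3 (eBayes with trend, two-sided) on log2(RPM + 0.5) for genes whose mean over the pools reached 1 RPM, since RPM are not counts. All nonzero RPM (100%) were whole steps within 0.01 of a step, from which reads were recovered for edgeR 4.0.16 and DESeq2 1.42.0. The library totals are estimates that assume reads scaled to a common total and rounded up, which no source states. With 2 pools against 2 an exact permutation test cannot go below p = 0.33, so none was run. The p-values of limma rest on the spread between pools, moderated toward a trend over all genes tested, and not on the spread between single tumors. Counting limits cover counting error only.

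Members and lists were chosen with earlier results of these data known. Any member may be named, with values in every pool for members called or with a group mean of at least 10 RPM, and other genes come from the fixed lists. Coordinates and exon lengths are from GENCODE M21 (GRCm38), which holds 98.9% of the identifiers. The exon length joins all isoforms, so levels per kb are understated for genes with long rare exons. Tables were made with pandas 2.3.3 under Python 3.11.15 and plots with matplotlib 3.10.9. Alternatives were other offsets, scalings, filters and tests, a replicate block, and each pool left out in turn. A crossed replicate block, chosen after seeing the data, is counted with the alternatives that keep all pools. Some called genes of the synthesis and breakdown list are counted but not reported here by name.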

Additional observations from a re-analysis of the deposited data

How the results depend on the processing

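The counts of 5 members called higher and 7 called lower were the same with offsets of 0.1 and 1 RPM and with DESeq2, and stayed within 1.5 times of these counts with TMM or median-of-ratios scaling (5 and 5) and a minimum mean of 5 RPM (4 and 5). Without a trend in limma's eBayes 4 were higher and 4 lower (13.8% each, against 6.51% and 9.28% of all genes). With edgeR's quasi-likelihood test 5 and 4 were called (17.2% and 13.8%, against 11.3% and 11.7% of all genes). The share of members called lower was thus close to that of all genes with edgeR. With DESeq2 the shares were 17.2% and 24.1%, against 13.7% and 16.6% of all genes. With median-of-ratios scaling they were 17.2% each, against 10.9% and 12.3%. With all genes above 0 in any pool tested (26260 genes) 0 and 0 members were called by limma, against 6 and 13 at an unadjusted p under 0.05 (3394 and 4003 of all genes). Without 1 pool the counts were 0 to 0 in both directions, against 3 to 6 higher and 5 to 11 lower at an unadjusted p under 0.05. Deviations from the group mean correlated at -0.14 between pools of equal replicate number, which does not show whether the numbers pair the pools. With the replicate block 1 member was called higher and 4 lower (3.45% and 13.8%, against 4.01% and 7.77% of all genes), and with the crossed replicate block, chosen after seeing the data, 4 and 10 (13.8% and 34.5%, against 11.5% and 16.9%). Slc1a4, Slc38a4 and Slc43a3 were called in 10 of the 11 settings that keep all pools, Slc38a6, Slc6a9, Slc7a5 and Slc7a7 in 9, Slc38a2 in 8, Slc43a1 in 7, Slc7a8 in 6, Slc1a5 in 4 and Slc7a3 in 7 of 10. Among members that were not called, Slc7a1 changed sign with TMM (0.0136), median-of-ratios (0.0045), edgeR (0.014) and DESeq2 (0.0035), and so did Slc38a7 (0.0364, 0.0274, 0.0316 and 0.0219). On leaving out single pools the log2 fold changes ran from -0.20 to 0.29 for Slc36a4, -0.0238 to 0.19 for Slc38a1, -0.12 to 0.10 for Slc38a7, -0.0012 to 0.30 for Slc38a9, -0.10 to 0.0347 for Slc7a1, -0.15 to 0.79 for Slc7a11 and -0.0482 to 0.0787 for Slc7a6. Of the members that kept their sign, those that moved by over 1.5 times ran from -1.23 to -0.57 for Slc7a8, -0.59 to -0.21 for Slc3a2, 0.54 to 1.21 for Slc1a3, -0.45 to -0.0973 for Slc38a10, -0.56 to -0.21 for Slc36a1, 0.25 to 0.70 for Slc6a15, -0.66 to -0.30 for Slc6a6, -0.67 to -0.31 for Slc43a2 and -0.44 to -0.18 for Slc6a8. Members under 1 RPM were not tested, and with 2 pools a group the intervals are wide.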
